A study of Mus musculus with 8 samples.

Results

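The genes described here encode the synaptic vesicle and the machinery that releases it, and comprise 47 members listed by mouse symbol, out of 38924 gene identifiers in the deposited tables. The rule that lists them uses names and no measured value, but the members were chosen with earlier results of these data known. All 47 symbols were found, and all 47 were among the 15208 genes with enough counts to be tested. They were measured in ribosome-bound mRNA precipitated from the spinal cords of 8 mice, by sequencing. All mice carried 1 modified copy of Rpl22 (Rpl22 +/-), which encodes a ribosomal protein that gains an HA tag where Cre recombinase is active, and the series states a Gars+/+ background. Tagged ribosomes were pulled down with an antibody against HA.

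The mice fell into 4 groups of 2. Mice with Cre (Chat +/-, tag in cholinergic cells) had either a crushed sciatic nerve (animals 35 and 52, aged 18 and 9 weeks) or no crush (animals 10 and 3, aged 8 weeks). Mice without Cre (Chat +/+) likewise had a crushed nerve (animals 51 and 58, aged 9 weeks) or no crush (animals 4 and 6, aged 8 weeks). They carried no source of the tag, so their libraries hold mRNA that comes down without it. The strain was B6.CgxB6.129 in every group. The Chat promoter that drives Cre is active in all cholinergic cells of the cord and not only in motor neurons, the cord was taken whole after a crush on 1 side, and no source used here gives the time from crush to collection. The genotype entries of uncrushed animals 3 and 4 contradict their titles. Samples were grouped by title, and counts are also given below without those animals. Nothing beyond the animal numbers says how independently the animals were raised or processed, so p-values measure the spread between these samples.

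Library totals were 4826979 to 11522721 expected counts. The 7 cholinergic motor neuron markers summed to 1694 to 2062 CPM (read counts scaled to a common library size by TMM) with Cre, against 63.2 to 163 CPM without Cre, and Chat itself was at 78.2 to 126 CPM with Cre, against 3.83 to 5.16 CPM without Cre, as the titles have it. Markers of other cells ran the other way. The 6 oligodendrocyte markers summed to 596 to 1439 CPM with Cre, against 3697 to 6709 CPM without Cre, the 5 astrocyte markers to 42.9 to 113 CPM, against 354 to 568 CPM, the 5 microglia markers to 3.77 to 10.4 CPM, against 42.9 to 109.5 CPM, the 3 endothelial markers to 5.94 to 16.5 CPM, against 48.6 to 83.9 CPM, and the 6 interneuron markers to 181 to 269 CPM, against 464 to 658 CPM. The interneuron sum leaned on Slc6a5, which averaged 296 CPM in crushed and 390 CPM in uncrushed mice without Cre. By the test used below, 4 of these 6 were lower with Cre in uncrushed mice and 3 in crushed mice. Of all tested genes, 21.9% and 21.3% were lower there. Of the sensory ganglion markers, Calca, which motor neurons also make, was at 212 to 432 CPM with Cre, against 9.23 to 26.0 CPM without Cre, while Scn10a, Mrgprd and Trpv1 were at 0 to 12.02 CPM in the 8 libraries. Mitochondrial ribosomal RNA took 1.61% to 5.53% of counts with Cre, against 11.5% to 48.2% without Cre. These shifts run along with every comparison by Cre below, and their part in those results was not tested. In bulk samples of this kind, fewer cells of a type and less RNA per cell cannot be told apart.

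Synaptic vesicles fuse when a vesicle SNARE (a synaptobrevin of the Vamp family) zips up with SNAREs of the plasma membrane (Snap25 and a syntaxin). Synaptotagmins sense the calcium that triggers fusion, complexins hold and assist the zipped complex, Munc13 and RIM proteins prepare vesicles at the active zone, and Rab3 GTPases and synapsins govern where vesicles sit. Motor neurons make these proteins from mRNA in the cell body and send them along the axon to the neuromuscular junction, where in mice Vamp1 and Syt2 are needed for normal transmission. Most of the families have several paralogs, and which paralog a neuron uses varies between cell types.

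Per length (CPM per kilobase of mean effective gene length), Snap25 was first of the 47 genes in each of the 4 groups. In uncrushed mice with Cre it averaged 8200 ± 712 CPM per kilobase (SD, n = 2), followed by Vamp1 at 900.0 ± 24.2, Cplx1 at 653 ± 10.3, Syp at 460.0 ± 50.6 and Rab3a at 380.0 ± 75.9. Stx1a was last of the 47 there at 0.592 ± 0.0769. The order was not the same without Cre. Rab3b, a vesicle GTPase, was at rank 8 in uncrushed mice with Cre, against rank 24 in uncrushed mice without Cre. Vamp2, the synaptobrevin of most central synapses, was at rank 13 with Cre, against rank 5 without Cre. Snap25 alone made up 48.7% to 51.8% of the summed CPM of the 47 genes with Cre, against 36.4% to 41.8% without Cre. The summed CPM itself was 19980 to 21990 in crushed and 25340 to 27130 in uncrushed mice with Cre, against 6009 to 8326 in crushed and 9602 to 10340 in uncrushed mice without Cre.

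**Figure D1:**
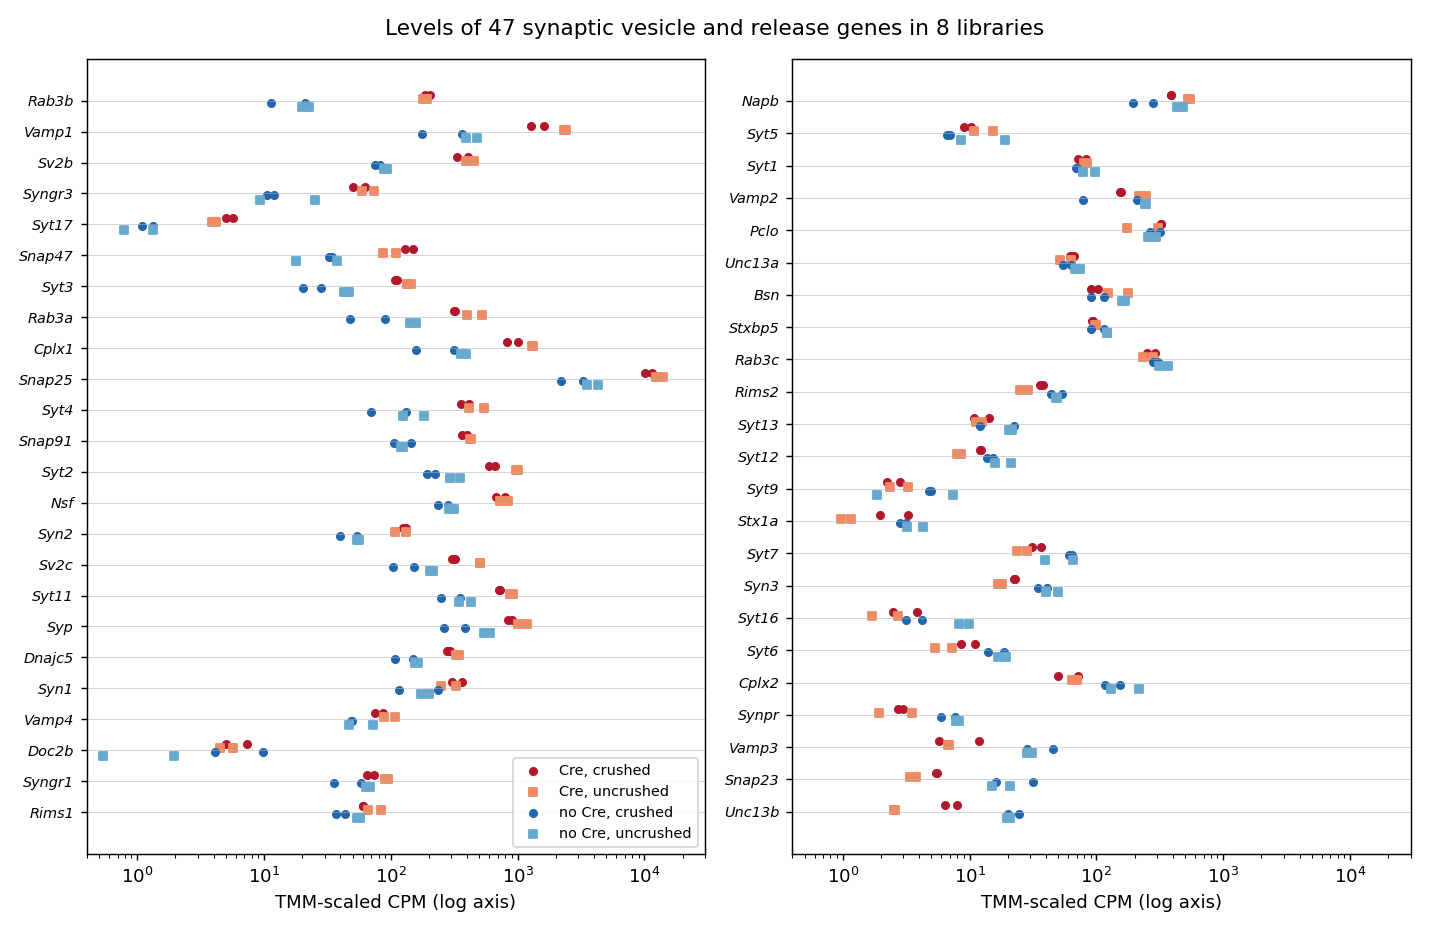
Level of each of the 47 genes (rows, ordered by the fold change between mice with and without Cre) in each of the 8 libraries, as TMM-scaled CPM on a log axis. Each point is 1 library, and colour and shape give the group. Rab3b and Vamp1 lie at the top with all libraries with Cre to the right of those without, and Unc13b, Snap23 and Vamp3 at the bottom lie the other way round.

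Comparing mice with and without Cre asks which of these mRNAs were richer in ribosomes of cholinergic cells than in the untagged background. In uncrushed mice, 21 members were higher and 12 lower with Cre (edgeR quasi-likelihood test, Benjamini-Hochberg adjusted p at most 0.05), where 20.6% of all tested genes were called higher and 21.9% lower (42.5% either way). In crushed mice, 22 members were higher and 7 lower, where 21.6% of all genes were higher and 21.3% lower (42.9% either way). With all mice and crush as a covariate, 24 were higher and 12 lower, where 28.7% of all genes were higher and 31.2% lower (59.9% either way). The median log2 fold change of the 47 genes was 0.43 in uncrushed mice, 0.57 in crushed mice and 0.51 in all mice, beside -0.03, -0.08 and -0.07 over all tested genes. The higher share of members was thus above the background share in each comparison, and the lower share close to it in uncrushed mice and below it in crushed mice and all mice. Libraries with Cre lay wholly above those without for 25 members and wholly below for 16 in uncrushed mice, where 36.2% of all genes lay above and 35% below (71.2% either way). In crushed mice these counts were 27 and 11, where 37.9% lay above and 40.3% below (78.1% either way), and in all mice 22 and 10, where 25.7% lay above and 25.2% below (51% either way).

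The lower calls lean on the scaling. With library size alone, which shifts the median of all genes by Cre to 0.65 in uncrushed mice, 0.06 in crushed mice and 0.33 in all mice, the split of members was 25 higher and 3 lower, 21 higher and 4 lower, and 24 higher and 5 lower, and that of all called genes was 76.5%, 59.6% and 63.6% higher, beside 48.5%, 50.4% and 47.9% with TMM. Vamp3, Snap23 and Unc13b were lower in all of these fits. The ratios of paralogs within a library, given below, do not depend on the scaling in this way. In uncrushed mice, 13 members were higher and 8 lower without animals 3 and 4, where 20.1% of all genes were called.

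Across the 47 genes, the Cre effect in crushed mice and that in uncrushed mice, which share no library, gave a Pearson correlation of 0.927 and a Spearman correlation of 0.922, as a description over genes. Of the 47, 20 were called higher in both, 7 lower in both and none in opposite directions. Over all tested genes, 42.5% were called in uncrushed and 42.9% in crushed mice. Correlations and joint calls over all genes are not given here, so this agreement cannot be called particular to the members. Doc2b was called higher in uncrushed mice alone, and Syt6, Syt12, Syt16, Stx1a and Rims2 lower in uncrushed mice alone, while Syn1 and Napb were called higher in crushed mice alone. None of the 47 passed the test of the difference between the Cre effects, given with the crush results below.

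**Figure D2:**
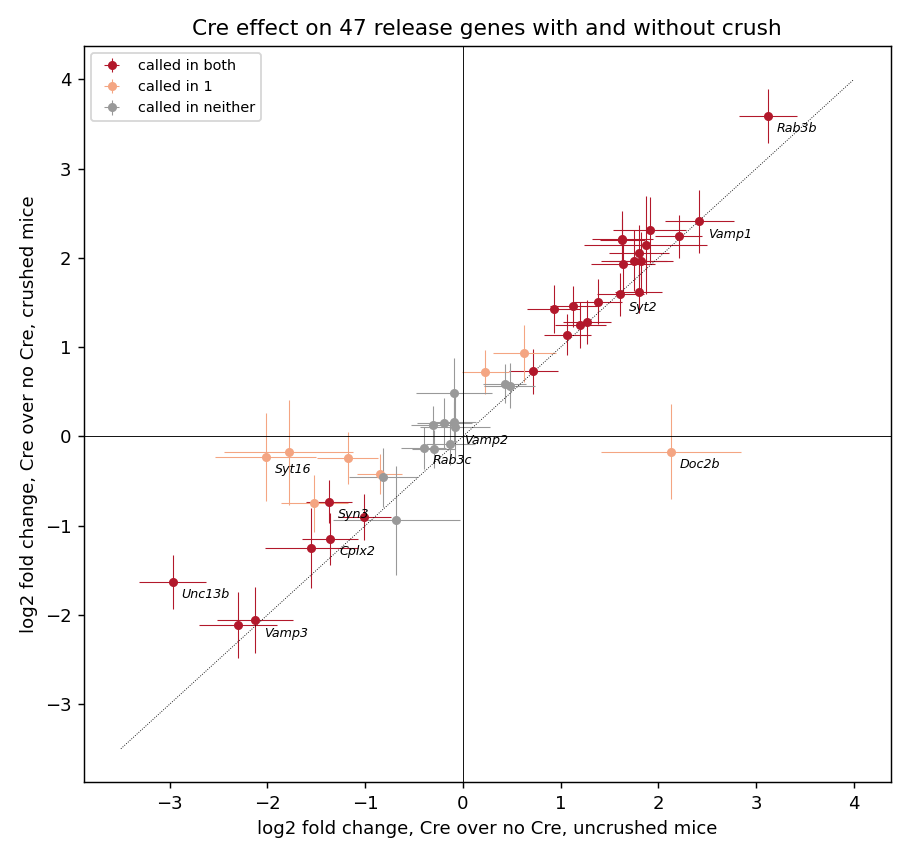
Log2 fold change with Cre over without Cre for each of the 47 genes, in crushed mice (vertical axis) against uncrushed mice (horizontal axis), with bars of ± 1 SE and colour for the number of comparisons in which the gene was called. Most genes lie near the dotted line of equal effects, with Rab3b at the top right and Unc13b, Vamp3 and Snap23 at the lower left, and Doc2b lies apart at 2.13 in uncrushed and -0.17 in crushed mice.

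Among the vesicle SNAREs, Vamp1 was higher and Vamp3 lower with Cre, and Vamp2 was not called. Vamp1, synaptobrevin 1, had 1605 and 1266 CPM in crushed and 2396 and 2306 CPM in uncrushed mice with Cre, against 177 and 365 CPM in crushed and 482 and 393 CPM in uncrushed mice without Cre. Every library with Cre was above every library without it, by a log2 fold change of 2.42 ± 0.24 in all mice (SE; adjusted p = 4.06e-06). Vamp2, its close paralog, had 156 and 153 CPM in crushed and 244 and 216 CPM in uncrushed mice with Cre, against 79.1 and 209 CPM in crushed and 245 and 241 CPM in uncrushed mice without Cre. The groups overlapped, and the log2 fold change in all mice was 0.01 ± 0.24 (95% interval -0.51 to 0.53; adjusted p = 0.965). In crushed mice the Vamp2 value rested on animal 58 without Cre, without which it was 1.01 (adjusted p = 0.00898), against 0.10 ± 0.36 with it. Vamp3, cellubrevin, a SNARE of membrane traffic in many non-neuronal cells, had 5.76 and 11.95 CPM in crushed and 6.77 and 6.92 CPM in uncrushed mice with Cre, against 28.2 and 45.7 CPM in crushed and 28.5 and 31.3 CPM in uncrushed mice without Cre. All libraries with Cre were below all without, by -2.09 ± 0.26 (adjusted p = 2.09e-05). Vamp4, a SNARE of the Golgi and endosomes, averaged 81.2 ± 8.37 CPM in crushed and 98.4 ± 13.9 CPM in uncrushed mice with Cre, against 48.9 ± 0.769 CPM in crushed and 59.4 ± 18.4 CPM in uncrushed mice without Cre (SD, n = 2) and was higher by 0.73 ± 0.17 (adjusted p = 0.00297).

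Of Snap25 and its relatives on the list, Snap25 and Snap47 were higher and Snap23 lower. Snap25, the neuronal SNARE cut by botulinum toxin A, had 11390 and 10090 CPM in crushed and 12350 and 13970 CPM in uncrushed mice with Cre, against 2209 and 3293 CPM in crushed and 3494 and 4322 CPM in uncrushed mice without Cre. The libraries with Cre lay above all others, by 1.86 ± 0.23 in all mice (adjusted p = 2.45e-05). In uncrushed mice its call was lost without both animals 3 and 4 (1.56, adjusted p = 0.0831). Snap23, the relative of Snap25 found in most cells outside neurons, had 5.44 and 5.54 CPM in crushed and 3.77 and 3.41 CPM in uncrushed mice with Cre, against 31.4 and 16.2 CPM in crushed and 20.7 and 15.0 CPM in uncrushed mice without Cre. It was lowest in the uncrushed mice with Cre, the groups did not overlap, and the log2 fold change was -2.20 ± 0.27 (adjusted p = 2.01e-05). Snap47, a more distant relative, had 149.8 and 129 CPM in crushed and 86.9 and 109 CPM in uncrushed mice with Cre, against 32.6 and 34.3 CPM in crushed and 17.9 and 37.7 CPM in uncrushed mice without Cre. Its libraries with Cre were all above those without, by 1.93 ± 0.21 (adjusted p = 9.12e-06). Its exons share 307 bases (11.6%) with Jmjd4 on the opposite strand, and no source used here says whether counting used strand. Stx1a, syntaxin 1A, was barely present, with 9 to 52 counts in the libraries with Cre and 11 to 21 in those without. It averaged 2.63 ± 0.929 CPM in crushed and 1.07 ± 0.139 CPM in uncrushed mice with Cre, against 3.01 ± 0.223 CPM in crushed and 3.75 ± 0.767 CPM in uncrushed mice without Cre, and its lower call in uncrushed mice (-1.78 ± 0.66; adjusted p = 0.0476) was lost when any 1 of the 8 libraries was left out, with log2 fold changes of -1.93 to -1.54 then.

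The complexins split in opposite directions. Cplx1, complexin 1, had 1006 and 824 CPM in crushed and 1331 and 1302 CPM in uncrushed mice with Cre, against 157 and 314 CPM in crushed and 355 and 393 CPM in uncrushed mice without Cre. No library without Cre reached those with Cre, and the log2 fold change was 1.89 ± 0.22 (adjusted p = 1.57e-05). Cplx2, complexin 2, had 50.0 and 72.0 CPM in crushed and 63.9 and 70.8 CPM in uncrushed mice with Cre, against 116 and 154 CPM in crushed and 216 and 131 CPM in uncrushed mice without Cre. Here all libraries with Cre were below all without, by -1.25 ± 0.20 in all mice (adjusted p = 0.000178). In crushed mice (-1.15 ± 0.29; adjusted p = 0.0094) the Cplx2 call was lost without animal 35 (-0.87, adjusted p = 0.136) or animal 58 (-0.88, adjusted p = 0.0611), and in uncrushed mice (-1.36 ± 0.29) it was lost with library size alone (-0.61, adjusted p = 0.162).

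Cplx1 and Cplx2 were called in opposite directions, while Rab3b was called higher and Rab3c was not called, as given below. For these 4 genes the 250 bases before the annotated start are shown, from RefSeq on GRCm38.p6, 5′ to 3′ along the gene's strand. Capitals mark the letters GGGCGG or their reverse complement, called a GC box, and in Rab3b also the letters TATAAA. The regions are chr5:108550028-108550277 (minus strand, GC content 64.8%), chr13:54302306-54302555 (plus strand, 50.8%), chr4:108878820-108879069 (plus strand, 48.8%) and chr13:110280207-110280456 (minus strand, 47.6%), in the order of the lines.
Cplx1: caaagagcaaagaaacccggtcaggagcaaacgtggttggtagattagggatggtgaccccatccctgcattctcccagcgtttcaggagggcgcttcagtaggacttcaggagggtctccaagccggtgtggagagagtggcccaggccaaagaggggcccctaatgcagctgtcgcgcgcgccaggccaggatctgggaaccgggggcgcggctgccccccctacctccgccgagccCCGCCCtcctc
Cplx2: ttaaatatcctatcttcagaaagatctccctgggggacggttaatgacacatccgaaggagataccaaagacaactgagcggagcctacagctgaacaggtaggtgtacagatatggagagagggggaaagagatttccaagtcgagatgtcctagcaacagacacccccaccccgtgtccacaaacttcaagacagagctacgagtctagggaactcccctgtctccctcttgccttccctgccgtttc
Rab3b: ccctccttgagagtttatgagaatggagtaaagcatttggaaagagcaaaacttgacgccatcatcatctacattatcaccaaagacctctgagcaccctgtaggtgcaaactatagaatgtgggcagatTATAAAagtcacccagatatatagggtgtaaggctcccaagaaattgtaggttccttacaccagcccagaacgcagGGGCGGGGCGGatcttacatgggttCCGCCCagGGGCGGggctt
Rab3c: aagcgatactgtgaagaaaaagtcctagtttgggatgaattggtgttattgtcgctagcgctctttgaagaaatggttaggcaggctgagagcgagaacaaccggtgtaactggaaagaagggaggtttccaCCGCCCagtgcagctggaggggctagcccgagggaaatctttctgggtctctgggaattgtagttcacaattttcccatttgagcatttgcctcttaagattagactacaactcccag
The Cplx1 window held 1 GC box and the Cplx2 window 0, the Rab3b window 4 GC boxes, of which a pair overlap, and 1 copy of TATAAA, and the Rab3c window 1 GC box. Of the 47 members, 33 matched the promoter table, with 44 entries. A GC box on either strand was in 28 of those 44 windows (63.6%), beside 32.7% of all 32851 windows of that length in the table. TATAAA was in 6.82% of the member windows, beside 12.4% of all. The cyclic AMP element TGACGTCA was in 2.27%, beside 1.55%, and CAGCACC, the left part of the site of the neuronal gene repressor REST, in 4.55%, beside 5.73%. These are matches of letters only.

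Among the synaptotagmins, 5 of 13 were higher and 5 lower with Cre in all mice, where 28.7% of all genes were higher and 31.2% lower. Syt2, the fast calcium sensor of the neuromuscular junction, had 593 and 660.2 CPM in crushed and 967 and 1007 CPM in uncrushed mice with Cre, against 194 and 223 CPM in crushed and 294 and 354 CPM in uncrushed mice without Cre. All libraries with Cre were above the rest, by 1.60 ± 0.17 (adjusted p = 6.8e-06). Syt1, the fast sensor of forebrain synapses, had 71.8 and 83.4 CPM in crushed and 84.7 and 79.7 CPM in uncrushed mice with Cre, against 70.4 and 68.5 CPM in crushed and 78.0 and 97.2 CPM in uncrushed mice without Cre. These overlapped, with 0.03 ± 0.16 in all mice (95% interval -0.30 to 0.37; adjusted p = 0.862). Syt9, a further fast sensor, was scarce, with 2.22 and 2.85 CPM in crushed and 3.25 and 2.34 CPM in uncrushed mice with Cre, against 4.75 and 5.00 CPM in crushed and 7.41 and 1.87 CPM in uncrushed mice without Cre. Only animal 6 without Cre, at the lowest of the 8 values, kept its groups from separating, and leaving it out gave -1.06 (adjusted p = 0.0282), against -0.82 ± 0.44 with it (adjusted p = 0.12).

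Syt3 and Syt7, both sensors with high affinity for calcium, went opposite ways. Syt3 had 109 and 112 CPM in crushed and 135 and 144 CPM in uncrushed mice with Cre, against 20.2 and 28.0 CPM in crushed and 47.2 and 43.0 CPM in uncrushed mice without Cre. All libraries with Cre were above the rest, by 1.92 ± 0.18 (adjusted p = 3.25e-06). Syt7 had 30.9 and 36.3 CPM in crushed and 23.7 and 28.3 CPM in uncrushed mice with Cre, against 64.6 and 61.1 CPM in crushed and 39.4 and 65.2 CPM in uncrushed mice without Cre. Its libraries with Cre all lay below those without, by -0.96 ± 0.19 (adjusted p = 0.00069), a call lost with library size alone (-0.57, adjusted p = 0.116).

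Syt4 and Syt11, close relatives with a first C2 domain that does not bind calcium, were both higher. Syt4 had 357 and 412 CPM in crushed and 541 and 412 CPM in uncrushed mice with Cre, against 69.6 and 133 CPM in crushed and 181 and 125 CPM in uncrushed mice without Cre. Syt11 had 712 and 723 CPM in crushed and 868 and 913 CPM in uncrushed mice with Cre, against 250.4 and 353 CPM in crushed and 347 and 426 CPM in uncrushed mice without Cre. For both, no library with Cre overlapped those without, and the log2 fold changes were 1.79 ± 0.23 for Syt4 (adjusted p = 2.87e-05) and 1.23 ± 0.18 for Syt11 (adjusted p = 8.43e-05). Of the other 6 synaptotagmins, Syt17 was higher, with 151 counts in crushed and 72 in uncrushed mice with Cre, against 16 and 7 without Cre, and a log2 fold change of 2.02 ± 0.42 (adjusted p = 0.00112). Syt6, at 9.75 ± 1.70 CPM in crushed and 6.27 ± 1.32 CPM in uncrushed mice with Cre, against 16.4 ± 3.43 CPM in crushed and 18.0 ± 1.74 CPM in uncrushed mice without Cre (SD, n = 2), was lower by -1.11 ± 0.26 (adjusted p = 0.00236), and with library size alone was at -0.68 (adjusted p = 0.0819). Syt12 (-0.69), Syt13 (-0.63) and Syt16 (-1.09) were called lower in all mice as well, with adjusted p of 0.0288, 0.0357 and 0.0463, and these calls were lost in several fits without 1 library or with library size alone. Syt5 was not called (0.20 ± 0.28).

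Of the synaptophysins, multi-pass proteins of the vesicle membrane, Syp was higher with Cre and Synpr lower. Syp, synaptophysin, had 908 and 834 CPM in crushed and 1182 and 1011 CPM in uncrushed mice with Cre, against 261 and 384 CPM in crushed and 542 and 608 CPM in uncrushed mice without Cre. Its libraries with Cre were all above those without, by 1.18 ± 0.20 (adjusted p = 0.000246). Synpr, synaptoporin, its paralog, had 2.72 and 3.01 CPM in crushed and 3.51 and 1.95 CPM in uncrushed mice with Cre, against 5.97 and 7.66 CPM in crushed and 8.19 and 7.75 CPM in uncrushed mice without Cre. At 20 to 46 counts in each library it was nevertheless lower in every library with Cre, by -1.39 ± 0.33 (adjusted p = 0.00292). Its calls within crushed mice or within uncrushed mice were each lost in several fits that left out 1 library.

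The synaptogyrins, multi-pass vesicle proteins related to synaptophysin, differed in size of effect. Syngr3 had 62.0 and 50.1 CPM in crushed and 58.9 and 74.2 CPM in uncrushed mice with Cre, against 10.6 and 11.99 CPM in crushed and 9.36 and 25.1 CPM in uncrushed mice without Cre. All its libraries with Cre were above the rest, by 2.12 ± 0.25 (adjusted p = 1.81e-05). Syngr1 had 73.6 and 65.3 CPM in crushed and 89.5 and 95.1 CPM in uncrushed mice with Cre, against 35.4 and 58.1 CPM in crushed and 69.0 and 63.3 CPM in uncrushed mice without Cre. The lowest library with Cre was within the range of those without, and it was higher by 0.53 ± 0.18 (adjusted p = 0.0198), a call lost without animal 35 (0.52, adjusted p = 0.0542).

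Both SV2 glycoproteins on the list, through which botulinum toxin A enters nerve terminals, were higher. Sv2b had 405 and 335 CPM in crushed and 388 and 454 CPM in uncrushed mice with Cre, against 74.8 and 82.0 CPM in crushed and 88.9 and 92.7 CPM in uncrushed mice without Cre. Sv2c had 301 and 321 CPM in crushed and 507 and 508 CPM in uncrushed mice with Cre, against 104 and 152 CPM in crushed and 215 and 205 CPM in uncrushed mice without Cre. Neither gene's groups overlapped, and the log2 fold changes were 2.23 ± 0.17 for Sv2b (adjusted p = 8.55e-07) and 1.28 ± 0.17 for Sv2c (adjusted p = 4.27e-05). Their relative Sv2a, which is not on the list, had lower means with Cre. It averaged 57.7 ± 10.2 CPM in crushed and 68.1 ± 4.89 CPM in uncrushed mice with Cre (SD, n = 2). Without Cre it averaged 76.9 ± 1.27 CPM in crushed and 126 ± 13.1 CPM in uncrushed mice.

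Of the synapsins, which tether vesicles in the reserve pool, Syn1 and Syn2 were higher in all mice and Syn3 lower. Syn1 had 363 and 303 CPM in crushed and 249 and 325 CPM in uncrushed mice with Cre, against 115 and 234 CPM in crushed and 172 and 199 CPM in uncrushed mice without Cre. The libraries with Cre were all higher, though animal 58 without Cre came close to the lowest of them, and the log2 fold change was 0.78 ± 0.22 (adjusted p = 0.00812). Syn2 had 125 and 132 CPM in crushed and 109 and 132 CPM in uncrushed mice with Cre, against 39.6 and 53.6 CPM in crushed and 53.8 and 56.4 CPM in uncrushed mice without Cre. Its groups lay well apart, at 1.30 ± 0.17 (adjusted p = 3.51e-05). Syn3 had 22.9 and 22.4 CPM in crushed and 16.8 and 18.1 CPM in uncrushed mice with Cre, against 40.4 and 34.5 CPM in crushed and 49.9 and 40.3 CPM in uncrushed mice without Cre. All libraries with Cre were below all without, by -1.04 ± 0.19 (adjusted p = 0.00048), and with library size alone the adjusted p was 0.0634. Exons of Syn3 share 1733 bases (14.1%) with Timp3 on the opposite strand, which had up to 1373 counts in a library, so the reads of these genes may not be separable.

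Of the Rab3 GTPases, which sit on vesicles and bind RIM, Rab3a and Rab3b were higher and Rab3c was not called. Rab3b had 203 and 187 CPM in crushed and 178 and 193 CPM in uncrushed mice with Cre, against 11.4 and 21.2 CPM in crushed and 22.6 and 20.0 CPM in uncrushed mice without Cre. Every library with Cre was far above those without, and its log2 fold change of 3.36 ± 0.22 (adjusted p = 3.61e-07), a fold of 10.3, was the largest of the 47 in all mice. Rab3a had 317 and 318 CPM in crushed and 526 and 396 CPM in uncrushed mice with Cre, against 47.2 and 89.8 CPM in crushed and 157 and 142 CPM in uncrushed mice without Cre. Its groups were also apart, by 1.92 ± 0.23 (adjusted p = 1.56e-05). Rab3c had 249 and 289 CPM in crushed and 235 and 280.1 CPM in uncrushed mice with Cre, against 309 and 279.9 CPM in crushed and 370.0 and 310.4 CPM in uncrushed mice without Cre. Its groups overlapped (-0.27 ± 0.17; 95% interval -0.62 to 0.09; adjusted p = 0.183).

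Of the Munc13 priming factors of the active zone on the list, Unc13b was lower with Cre and Unc13a was not called. Unc13a, Munc13-1, had 62.2 and 66.1 CPM in crushed and 51.3 and 63.3 CPM in uncrushed mice with Cre, against 62.6 and 54.6 CPM in crushed and 74.1 and 68.4 CPM in uncrushed mice without Cre. The groups overlapped (-0.09 ± 0.16; 95% interval -0.44 to 0.27). Unc13b, Munc13-2, had 6.39 and 7.91 CPM in crushed and 2.60 and 2.53 CPM in uncrushed mice with Cre, against 20.1 and 24.3 CPM in crushed and 20.7 and 19.8 CPM in uncrushed mice without Cre. It was lowest in the uncrushed mice with Cre, intermediate in the crushed mice with Cre and highest in all libraries without Cre, with log2 fold changes by Cre of -2.97 ± 0.34 in uncrushed mice (adjusted p = 0.000128) and -1.63 ± 0.30 in crushed mice (adjusted p = 0.00166).

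Rims1 and Rims2 encode RIM scaffolds that link Rab3 and Munc13. Rims1 had 59.9 and 60.5 CPM in crushed and 65.6 and 84.2 CPM in uncrushed mice with Cre, against 37.1 and 43.2 CPM in crushed and 57.3 and 54.2 CPM in uncrushed mice without Cre. Rims2 had 37.6 and 35.7 CPM in crushed and 25.1 and 28.6 CPM in uncrushed mice with Cre, against 54.0 and 43.8 CPM in crushed and 49.1 and 48.1 CPM in uncrushed mice without Cre. In all mice Rims1 was higher by 0.51 ± 0.16 (adjusted p = 0.0134) and Rims2 lower by -0.63 ± 0.17 (adjusted p = 0.00638), and neither gene's groups overlapped. With library size alone Rims2 was at -0.23 (adjusted p = 0.497).

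Bassoon and piccolo are the giant scaffolds of the active zone. Bassoon (Bsn) had 104 and 90.7 CPM in crushed and 123 and 176 CPM in uncrushed mice with Cre, against 90.4 and 116 CPM in crushed and 168 and 161 CPM in uncrushed mice without Cre. Piccolo (Pclo) had 321 and 324 CPM in crushed and 175 and 305 CPM in uncrushed mice with Cre, against 317 and 265 CPM in crushed and 294 and 255 CPM in uncrushed mice without Cre. The groups of both genes overlapped, with log2 fold changes of -0.11 ± 0.17 for Bsn and -0.02 ± 0.20 for Pclo in all mice.

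Among the genes that reset the machinery, Nsf, the ATPase that takes spent SNARE complexes apart, averaged 739 ± 83.9 CPM in crushed and 783 ± 89.5 CPM in uncrushed mice with Cre, against 259 ± 31.7 CPM in crushed and 302 ± 20.9 CPM in uncrushed mice without Cre (SD, n = 2) and was higher by 1.45 ± 0.17 (adjusted p = 1.71e-05). Its adaptor Napb, beta-SNAP, averaged 390.0 ± 0.0218 CPM in crushed and 534 ± 13.4 CPM in uncrushed mice with Cre, against 237 ± 58.7 CPM in crushed and 455 ± 31.6 CPM in uncrushed mice without Cre and was higher by 0.48 ± 0.18 (adjusted p = 0.039), a call lost without animal 35, 51 or 52 (0.37 to 0.47). Snap91, the clathrin adaptor AP180, averaged 385 ± 25.1 CPM in crushed and 425 ± 5.91 CPM in uncrushed mice with Cre, against 125 ± 27.8 CPM in crushed and 123 ± 2.59 CPM in uncrushed mice without Cre and was higher by 1.71 ± 0.17 (adjusted p = 4.05e-06). Dnajc5, the vesicle chaperone CSP-alpha that keeps Snap25 folded, averaged 284 ± 9.70 CPM in crushed and 336 ± 15.0 CPM in uncrushed mice with Cre, against 128 ± 29.0 CPM in crushed and 160.0 ± 6.54 CPM in uncrushed mice without Cre and was higher by 1.11 ± 0.16 (adjusted p = 9.31e-05). Stxbp5, tomosyn, which binds syntaxin and restrains SNARE assembly, was not called (-0.22 ± 0.15). Doc2b, a calcium sensor of spontaneous release, held 171 counts in crushed and 90 in uncrushed mice with Cre, against 89 and 7 without Cre, and was not called in all mice (0.66 ± 0.51). Its higher call in uncrushed mice therefore rests on 7 counts in the mice without Cre.

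The paralog ratio within a library sets one gene against its relative in the same RNA, per length, and does not depend on depth. Of 19 pairs, 14 passed an exact two-sided permutation test of the 4 libraries with Cre against the 4 without, each with the smallest p that 70 regroupings can give (p = 0.0286; adjusted over the 19 pairs p = 0.0388). In those 14 pairs the ratios did not overlap between the groups, beside 51% of all tested genes whose own levels did not overlap in that comparison. A level is not the same measure as a ratio, and no share for ratios of other gene pairs is given here. The ratio was higher with Cre in 6 pairs and lower in 8. Regrouping only within crushed and within uncrushed mice, the smallest p is 0.0556, so no pair could pass. Pairs that share a gene are not independent of each other. The pairs were also chosen with earlier results of these data known, so these p-values are not those of pairs set in advance.

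Cplx1 over Cplx2 differed most among the ratios that were higher with Cre. Its log2 ratio was 5.56 and 4.75 in crushed and 5.61 and 5.43 in uncrushed mice with Cre, against 1.67 and 2.26 in crushed and 1.95 and 2.82 in uncrushed mice without Cre. That is 26.9 to 49.0 times more Cplx1 than Cplx2 per length with Cre, against 3.19 to 7.06 times without Cre, a difference of 3.16 on the log2 scale. Syt3 over Syt7 had log2 ratios of 3.41 and 3.22 in crushed and 4.10 and 3.94 in uncrushed mice with Cre, against -0.07 and 0.48 in crushed and 1.86 and 1.00 in uncrushed mice without Cre, a difference of 2.85. The ratio of Vamp1 to Vamp2 was 2.91 and 2.61 in crushed and 2.85 and 2.97 in uncrushed mice with Cre, against 0.72 and 0.36 in crushed and 0.53 and 0.26 in uncrushed mice without Cre. Vamp1 thus exceeded Vamp2 per length in all 8 libraries, by 6.09 to 7.82 times with Cre, against 1.2 to 1.64 times without Cre. For Syt2 over Syt1 the log2 ratio was 2.04 and 1.98 in crushed and 2.51 and 2.65 in uncrushed mice with Cre, against 0.46 and 0.69 in crushed and 0.91 and 0.86 in uncrushed mice without Cre, a difference of 1.56. Syt2 likewise exceeded Syt1 in all 8 libraries. The remaining higher ratios were Syngr3 over Syngr1, by 1.64, and Rab3b over Rab3a, by 1.42. Rab3a still exceeded Rab3b per length in every library, with log2 ratios of Rab3b to Rab3a of -0.41 and -0.54 in crushed and -1.33 and -0.81 in uncrushed mice with Cre, against -1.80 and -1.84 in crushed and -2.55 and -2.58 in uncrushed mice without Cre. For Syngr3 over Syngr1 the sign itself differed, since the log2 ratio was 0.49 to 0.85 with Cre, against -1.76 to -0.23 without Cre.

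Among the 8 lower ratios, Snap23 over Snap25 differed most, with -11.38 and -11.18 in crushed and -11.99 and -12.31 in uncrushed mice with Cre, against -6.53 and -8.06 in crushed and -7.79 and -8.56 in uncrushed mice without Cre on the log2 scale, a difference of -3.98. The differences of the others were -2.54 for Synpr over Syp, -2.21 for Rab3c over Rab3a, -2.18 for Vamp3 over Vamp2, -2.14 for Unc13b over Unc13a, -1.85 for Syn3 over Syn1, -1.13 for Rims2 over Rims1 and -0.93 for Sv2c over Sv2b. Sv2b and Sv2c were both called higher with Cre, and their ratio shows that Sv2b was higher by more. Syn2 over Syn1 (0.48, exact p = 0.0571, adjusted p = 0.0724), Syt11 over Syt4 (-0.58, adjusted p = 0.102), Syt9 over Syt1 (-0.69, adjusted p = 0.16), Snap47 over Snap25 (0.10, adjusted p = 0.844) and Pclo over Bsn (0.07, adjusted p = 0.886) did not pass the permutation test. Snap25 and Snap47 were thus both called higher with Cre by the count test, with no detectable difference in their ratio.

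**Figure D3:**
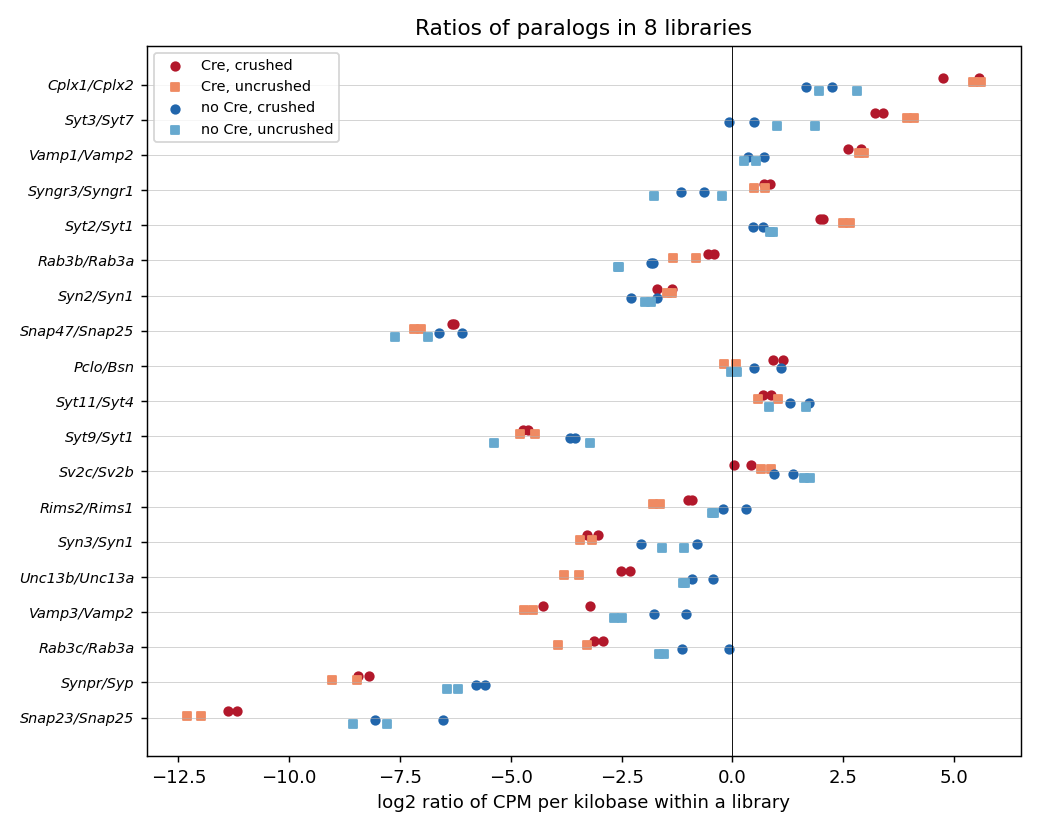
Log2 ratio of the per-length levels of 19 pairs of paralogs within each of the 8 libraries, ordered by the difference between libraries with and without Cre. Each point is 1 library, coloured by group. Cplx1/Cplx2 lies at 4.75 to 5.61 with Cre, against 1.67 to 2.82 without Cre, and Snap23/Snap25 at -12.31 to -11.18 with Cre, against -8.56 to -6.53 without Cre.

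Comparing crushed with uncrushed mice with Cre asks what a nerve crush did to these mRNAs in cholinergic cells. By edgeR's quasi-likelihood test 0 of the 47 members were called, where 0.0723% of all genes were called. At an unadjusted p under 0.05 there were 4 members, Unc13b, Sv2c, Syt2 and Bsn, beside 9.34% of all genes. DESeq2 called 1 member, Unc13b (1.49, adjusted p = 0.0457), as did edgeR with no filter on low counts (1.50, adjusted p = 0.0404). Of all genes, DESeq2 called 1.05% and edgeR with no filter 1.02%. Crush cannot be told apart from age or from a number carried by the titles of all uncrushed libraries alone.

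Unc13b had 6.39 and 7.91 CPM in crushed, against 2.60 and 2.53 CPM in uncrushed mice with Cre. Both crushed libraries were above both uncrushed ones, at a log2 fold change of 1.47 ± 0.33 (adjusted p = 0.163). Without Cre the same gene had 20.1 and 24.3 CPM in crushed, against 20.7 and 19.8 CPM in uncrushed mice without Cre, a log2 fold change of 0.14 ± 0.30, and the difference between these crush effects was 1.34 ± 0.44 (adjusted p = 0.816). The crushed mice with Cre also had higher sums of glial and endothelial markers than the uncrushed mice with Cre. Astrocyte markers summed to 79.6 to 113 CPM in crushed, against 42.9 to 56.1 CPM in uncrushed mice with Cre, microglia markers to 8.61 to 10.4 CPM, against 3.77 to 3.80 CPM, and oligodendrocyte markers to 861 to 1439 CPM, against 596 to 751 CPM. Endothelial markers summed to 11.7 to 16.5 CPM in crushed, against 5.94 to 6.64 CPM in uncrushed mice with Cre. Interneuron markers summed to 196 to 269 CPM, against 181 to 210.0 CPM, and these ranges overlapped. The cholinergic motor neuron markers ran the other way, at 1694 to 1848 CPM in crushed, against 1924 to 2062 CPM in uncrushed mice with Cre, with no overlap, and 0 of the 7 had a fold change above 0 (median -0.24). The part of these shifts in the Unc13b values and in the lower values given next was not tested.

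With TMM scaling, Sv2c and Syt2 lay lower in crushed than in uncrushed mice, with and without Cre. Sv2c had 301 and 321 CPM in crushed, against 507 and 508 CPM in uncrushed mice with Cre (-0.71 ± 0.24; adjusted p = 0.393), and 104 and 152 CPM in crushed, against 215 and 205 CPM in uncrushed mice without Cre (-0.72 ± 0.25; adjusted p = 0.307). Syt2 had 593 and 660.2 CPM in crushed, against 967 and 1007 CPM in uncrushed mice with Cre (-0.66 ± 0.24; adjusted p = 0.427), and 194 and 223 CPM in crushed, against 294 and 354 CPM in uncrushed mice without Cre (-0.64 ± 0.24; adjusted p = 0.331). Neither gene's crushed and uncrushed libraries overlapped, with or without Cre. Bsn was at -0.62 ± 0.24 with Cre and -0.67 ± 0.25 without Cre, again with no overlap, and Vamp1 at -0.71 ± 0.34 and -0.69 ± 0.34. None of these passed the adjusted threshold. Without Cre the direction turned with the scaling: with library size alone the log2 fold changes were 0.21 for Sv2c, 0.30 for Syt2, 0.27 for Bsn and 0.19 for Vamp1, beside a median of 0.94 over all genes. None of the 47 members then had both crushed libraries below both uncrushed ones without Cre, a count for which no share over all genes is given here. With Cre, Sv2c was at -0.27, Syt2 at -0.22, Bsn at -0.20 and Vamp1 at -0.27 with library size alone, beside a median of 0.47 over all genes, and the libraries of Bsn overlapped.

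Rab3b and Rab3c gave 0.07 ± 0.27 and 0.06 ± 0.23 with crush in mice with Cre, with 95% intervals of -0.51 to 0.65 and -0.44 to 0.57. In that comparison 24 of the 47 intervals lay wholly within a change of 2-fold either way. The intervals reached a median of 0.6 to either side on the log2 scale (0.46 to 1.36). They are not adjusted for the number of genes tested, so larger changes could also miss a call with 2 mice a group. Unc13b, at 1.47, was not called by edgeR's quasi-likelihood test (adjusted p = 0.163). Crushed libraries were all above uncrushed ones for 11 members and all below for 20, where 26.1% of all genes were above and 23.9% below (50% either way). The median log2 fold change of the members was -0.08, beside 0.03 over all genes. With library size alone the counts were 27 above and 4 below, for which no share over all genes is given here. The medians were then 0.35 for the members and 0.47 for all genes.

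Without Cre, 0 of 47 members were called by edgeR between crushed and uncrushed mice, where 0.0723% of all genes were called, and 10 members had an unadjusted p under 0.05, beside 12.8% of all genes. DESeq2 called 2, Rab3a (-1.14, adjusted p = 0.0324) and Napb (-0.96, adjusted p = 0.0114), both lower, where it called 0.704% of all genes. Rab3a had 47.2 and 89.8 CPM in crushed, against 157 and 142 CPM in uncrushed mice without Cre. Napb, the SNARE adaptor, had 195 and 278 CPM in crushed, against 478 and 433 CPM in uncrushed mice without Cre. Crushed libraries were all below uncrushed ones for 26 members and above for 1, Doc2b, where 19% of all genes were below and 19.9% above (38.9% either way), and the median was -0.31, beside -0.03 over all genes. With library size alone 29 members were above and 0 below, for which no share over all genes is given here. The median was then 0.63, beside 0.94 over all genes. The sign thus turned with the scaling, while the members' median lay below that of all genes with either scaling. The markers of other cells moved as well, with astrocyte markers at 554 to 568 CPM in crushed, against 354 to 475 CPM in uncrushed mice without Cre, microglia markers at 87.0 to 109.5 CPM, against 42.9 to 69.4 CPM, and oligodendrocyte markers at 3697 to 5293 CPM, against 5894 to 6709 CPM. Endothelial markers were at 66.5 to 83.9 CPM in crushed, against 48.6 to 77.2 CPM in uncrushed mice without Cre, with overlap. Interneuron markers were at 464 to 581.6 CPM, against 592 to 658 CPM. Mitochondrial ribosomal RNA took 11.5% and 39.9% of counts in crushed, against 48.2% and 32.7% in uncrushed mice without Cre. The part of these shifts in the members' values was not tested. Doc2b was at 2.57 ± 0.72 on 89 counts in crushed, against 7 counts in uncrushed mice. The difference between the crush effects with and without Cre was called for 0 of 47 members and 0 of all 15208 genes (0%), by edgeR. Unadjusted p under 0.05 was reached by 4 members, Unc13b, Doc2b, Syt16 and Syt12, beside 5.95% of all genes. DESeq2 called 0 members, where it called 0.0986% of all genes.

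**Figure D4:**
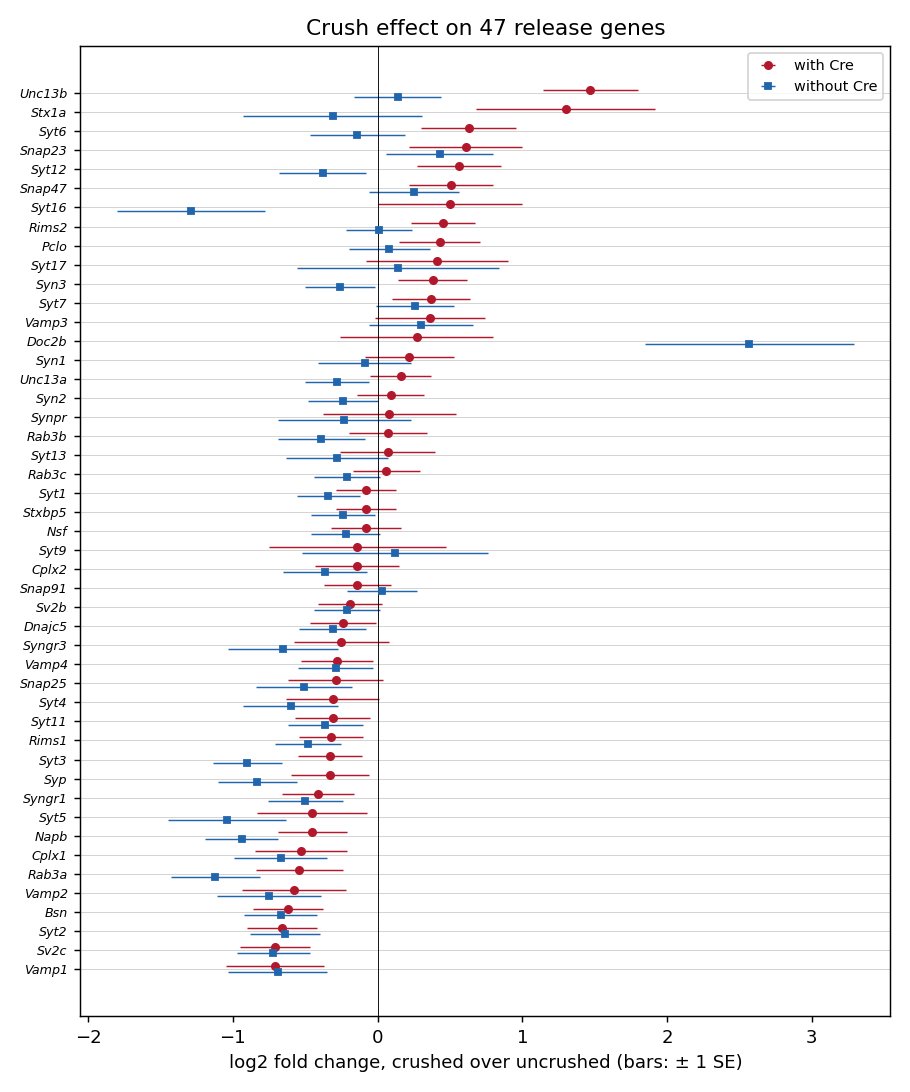
Log2 fold change in crushed over uncrushed mice for each of the 47 genes, with Cre (circles) and without Cre (squares), with bars of ± 1 SE, ordered by the value with Cre. With Cre the values run from 1.47 (Unc13b) to -0.71 (Vamp1 and Sv2c), none past the adjusted threshold. Without Cre most values lie below 0 with TMM scaling, with Doc2b at 2.57. The median without Cre is -0.31, beside -0.03 over all genes, against 0.63, beside 0.94 over all genes, with library size alone.

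The ratios of paralogs between crushed and uncrushed mice with Cre cannot reach an exact p below 0.333 with 2 against 2 libraries, and are given as values. Pclo over Bsn was 0.93 and 1.14 on the log2 scale in crushed, against -0.19 and 0.09 in uncrushed mice with Cre, and 1.11 and 0.49 in crushed, against 0.11 and -0.03 in uncrushed mice without Cre. Unc13b over Unc13a was -2.51 and -2.30 in crushed, against -3.46 and -3.80 in uncrushed mice with Cre, and -0.91 and -0.44 in crushed, against -1.11 and -1.06 in uncrushed mice without Cre. Of the 19 ratios, 12 did not overlap between crushed and uncrushed mice with Cre, of which 9 were higher in crushed mice and 3 lower. Beside this, 50% of all genes had levels of their own, a different measure, that did not overlap in that comparison. The other 7 higher ratios were Snap23 over Snap25 (0.87), Vamp3 over Vamp2 (0.85), Snap47 over Snap25 (0.81), Rims2 over Rims1 (0.75), Rab3b over Rab3a (0.60), Rab3c over Rab3a (0.59) and Synpr over Syp (0.44), each as crushed minus uncrushed on the log2 scale. The 3 lower ones were Syt3 over Syt7 (-0.70), Syt2 over Syt1 (-0.57) and Sv2c over Sv2b (-0.52). The remaining 7 ratios overlapped, among them those of Cplx1 to Cplx2 and of Vamp1 to Vamp2.

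A further list of 62 genes of vesicle release and recycling set the members beside their relatives, and 61 were found and 59 tested. With Cre, 20 were higher and 13 lower in uncrushed mice, 21 higher and 6 lower in crushed mice, and 26 higher and 15 lower in all mice, beside the background shares given above. Those with the smallest p among the higher genes in all mice were Sncg, gamma-synuclein (3.66 ± 0.33), Pacsin1, a membrane-bending protein of endocytosis (1.83 ± 0.17), and Rabac1, a Rab acceptor (2.17 ± 0.22). Amph, amphiphysin, was among the first 3 in uncrushed mice (1.65 ± 0.24). Those with the smallest p among the lower genes in all mice were Stxbp3, a partner of syntaxin 4 outside neurons (-2.61 ± 0.22), and the Munc13 relatives Unc13c (-2.04 ± 0.21) and Unc13d, which serves granule release in blood cells (-2.24 ± 0.28). Sypl, a synaptophysin-like protein, was among the first 3 lower genes in crushed mice (-1.78 ± 0.26). Of the Munc13 family, Unc13a therefore stood alone as a gene that was not called, with Unc13b, Unc13c and Unc13d all lower with Cre in all mice. None of the 59 was called between crushed and uncrushed mice, with or without Cre.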

How the data were processed

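Per the submitters' processing notes, the authors used Bowtie2 2.2.0 and RSEM 1.2.12, while no source used here gives the genome build, the annotation or the use of strand. The deposited values are expected counts per gene, the authors' estimates of reads that need not be whole, and the effective length of each gene in bases, a deposited column of another type. Symbols were assigned to 37607 of 38924 identifiers.

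Expected counts were rounded and tested with edgeR 4.0.16 (R 4.3.3) by the quasi-likelihood test on 15208 genes kept by filterByExpr (minimum count 10, minimum total 15), after TMM scaling. One mean per group was fitted over all 8 libraries (4 residual degrees of freedom), or Cre with crush as a covariate for all mice. Genes were called at a two-sided Benjamini-Hochberg adjusted p of 0.05, and ± after a log2 fold change is its SE. With these totals, 3 counts correspond to 0.19 to 1.17 CPM, and such floors cover counting error only. Paralog ratios used log2 CPM per kilobase with a prior count of 2. The pipeline was tested on simulated data.

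Alternatives were DESeq2 1.42.0, its size factors in edgeR, library size alone, no filter, the compared groups alone, leaving out each library and leaving out animals 3 and 4. Every member is accounted for. Values in each library are given for members of the 19 paralog pairs, and up to 3 other release genes with the smallest p are named per direction and comparison. Sv2a is named as well, beside Sv2b and Sv2c. Members, gene lists, markers and pairs were chosen with earlier results of these data known.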

Additional observations from a re-analysis of the deposited data

How the results depend on the processing

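Among the members, no fold change of a called gene changed sign under any alternative. The calls by Cre were kept under every alternative by 16 of 33 members in uncrushed mice, 21 of 29 in crushed mice and 27 of 36 in all mice. The count in uncrushed mice was 21 without animals 3 and 4, against 33 with them. Between crushed and uncrushed mice with Cre, against 0 called by edgeR, 1 member was called by DESeq2 and 1 with no filter, Unc13b each time. Without Cre, against 0, DESeq2 called 2 (Rab3a and Napb), library size alone 1 (Doc2b) and no filter 2 (Rab3a and Doc2b). Leaving out each library gave 23 to 34 calls by Cre in uncrushed mice, 21 to 30 in crushed mice, 31 to 36 in all mice and 0 to 0 for crush with Cre, crush without Cre and their difference. The 14 paralog ratios became 12 to 14 without 1 library. They became 0 when regrouped within crushed and uncrushed mice and 0 without animals 3 and 4, since the smallest exact p there is above the threshold. Over all genes, crush with Cre gave 11 calls by edgeR, 159 by DESeq2, 281 with no filter and 126 with the compared groups alone, and crush without Cre gave 11, 107, 338 and 2, with 1204 by library size alone and 1 by DESeq2 size factors. The cause of these differences was not tested. No paired analysis was possible because the 8 animals carry 8 different numbers. Depth limits Syt17, Stx1a and Doc2b, each under 20 counts in some group. No result met the rules for a closer look.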
